A study of Synthetic plasmid and Mus musculus with 4 samples.

Results

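Genomic fragments captured around 7 target sites, R885, R523, R72, R247, R13, R462 and R712, were followed as reporters in mouse retina and mouse cerebral cortex. From knowledge of the study, the letter R is read as a site taken from open chromatin of retina, and B, H and L as sites of brain, heart and liver, the deposited tables naming the letters alone. The 7 targets were chosen by their RNA and DNA counts in cortex, where the summed RNA of their fragments exceeded the DNA, so cortex values are given as a description, with no test. They held 93 of the 45670 constructs of the library. The minimum of 10 counts in every DNA library of a tissue was met by 79 of them in cortex, 71 in retina and 69 in both. In the cortex fit behind the choice, R462 lay just inside the threshold (adjusted p = 0.0206, edgeR) and R952 just outside (adjusted p = 0.0555, edgeR); that fit called 2.99% of its 2108 regions.

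An enhancer is a stretch of DNA that binds transcription factors and raises transcription from a promoter, often in either orientation. Open chromatin, seen as hypersensitivity to DNase, marks DNA that such factors can reach in a given tissue. Whether a fragment of such a site acts outside the tissue in which it was found depends on which factors the other tissue has, and on which part of the site the fragment holds.

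Each construct joined 1 sonicated fragment of C57BL/6J genomic DNA to 1 barcode that is transcribed, so barcode counts in RNA relative to DNA report the activity of the fragment. Retinas of CD-1 mice were electroporated ex vivo at age P0 and then kept in culture for 8 days, with 5 retinas in each of 3 biological replicates. CD-1 mice aged 4 to 6 weeks received the library in adeno-associated virus (AAV) by stereotactic injection into cortex, and GFP-positive pieces were dissected 4 to 5 weeks later, with 1 animal in each of 3 replicates. The same barcodes were thus read in both tissues, while delivery, age and sequencing lane differed with the tissue and cannot be told apart from it.

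A level, in what follows, is the RNA to DNA ratio of a fragment or target divided by the same ratio of all H and L constructs pooled in the same replicate. A level of 1 is therefore that of the pooled H and L constructs of that tissue. Library totals ranged from 3999412 to 12147398 counts. In retina 86.7% to 91.4% of H and L constructs had no RNA count in a library, and those that had one had a median of 31 to 42 counts, so single barcodes were read unevenly there. In cortex these figures were 33.3% to 43.8%, and 59 to 103 counts. Intervals and floors cover counting error only.

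The fragments on which the results turn are listed here by target and by a letter that gives their order of start along the chromosome, with position (mm9, counted from 1), cloned strand and the barcode that identifies them in both tissues, all letters of it in capitals.
R523-E, chr2:29682311-29682907, plus strand: TTGTAGCGTTCGTGT
R523-F, chr2:29682434-29682892, plus strand: CCCTATACGTACCCC
R523-G, chr2:29682436-29682936, minus strand: TGCCGCCACAGATGG
R523-D, chr2:29682241-29682669, minus strand: GCCCTATACATAAGC
R885-H, chr10:11038020-11038268, plus strand: CAACTGGGATAACGC
R885-M, chr10:11038088-11038286, plus strand: CTGTGCAGAATTGGA
R885-N, chr10:11038112-11038325, plus strand: AACATCCTAGTACGC
R712-I, chr15:72484218-72484592, minus strand: CCCCAACGCCTATCC
R13-R, chr6:115888931-115889363, minus strand: GCATTTAGGCCCTCC
R72-H, chr4:117486357-117486778, minus strand: GGTATCGCCTTCATG
R72-J, chr4:117486474-117486975, minus strand: CCCGCCCGATCCGAC
R72-A, chr4:117486145-117486728, plus strand: CCCGTGAGTTGAGAG
R247-B, chr12:36199343-36199850, minus strand: ATTAAGATATACATC
R247-E, chr12:36199400-36199856, plus strand: GATCATACATGCAAT
R462-F, chr3:19900622-19901063, minus strand: TCGCTTCCCCAACAC
R462-N, chr3:19900874-19901312, plus strand: AACAGCGCCAACCCC
R523-E, R523-F and R523-G lay above a level of 1 in every replicate of both tissues. R523-D is a neighbour with no retina RNA count. R885-H, R885-M, R885-N and R712-I carried activity in cortex, and R13-R had the largest share of the R13 RNA there, unevenly over replicates. R72-J and R72-A carried it in retina, and R72-H and R247-B in both. R247-E is the plus-strand neighbour of R247-B, with no retina RNA count. R462-F gave most of the R462 RNA in cortex, and R462-N was the R462 fragment raised in every cortex replicate.

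The 7 targets split by tissue. The 3 cortex levels of R885, R13 and R712 lay above their 3 retina levels, and the 3 retina levels of R72 and R247 above their 3 cortex levels. The levels of R523 and R462 overlapped between the tissues. The share of all regions with either order was not computed, and the 7 were chosen by their cortex values. These orders hold on the scale of the H and L constructs, whose RNA was a far smaller part of the library in retina than in cortex. With RNA share over DNA share of the whole library, cortex lay above retina in every replicate for R523 and R462 as well, only R72 kept retina above cortex, and R247 overlapped. In retina, the tissue that did not choose them, R72, R247 and R523 had RNA above the pooled H and L level in edgeR's quasi-likelihood test on counts summed per target, and R885, R13, R462 and R712 did not pass in either direction. These 3 of 7 stand beside 9.35% of all 2031 regions called higher and 38.7% of the 470 other R regions. The median log2 over the 7 was 0.51, against 1.22 over the other R regions and -1.67 over all regions. Ranked by this log2 among 477 R regions, R72 was at place 33, R247 at 93 and R523 at 128, while R462 was at 275, R13 at 393, R712 at 431 and R885 at 470. With total library size in place of the H and L scaling, the median region moved to -5.45, only R72 was still called higher, and R885, R13 and R712 were called lower.

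Taken barcode by barcode, 69 fragments could be compared in both tissues. A fragment counts as raised where its level was above 1 in all 3 replicates. In both tissues 7 fragments were raised, against 0.207% of all 34824 constructs compared, which includes the cortex values that chose the targets. A further 13 were raised in cortex and not in retina, 8 in retina and not in cortex, and 41 in neither. The shares of all constructs in these groups were not computed. Among all constructs over the DNA minimum, 1686 were raised in cortex and 1758 in retina, but only 72 in both. Being raised in a single tissue is therefore not particular to these fragments. Of the 13, 8 belonged to R885, and of the 8 raised in retina alone, 7 belonged to R72 and 1 to R247. The 7 shared fragments were R523-E, R523-F, R523-G, R72-E, R72-F, R72-H and R247-B. In retina alone, 16 of 71 fragments were raised, or 22.5%, beside 4.88% of all constructs, 19.01% of the other R constructs and 0.176% of H and L constructs. In cortex, whose values chose the targets, 21 of 79 were raised, beside 4.34% of all constructs, so that excess follows from the choice. Across the 69 fragments the levels in the tissues had a Spearman correlation of 0.059, a description over fragments that overlap one another and share libraries. Within R523 it was 0.75 (n = 6), within R72 0.0061 (n = 10), and within R885, R13, R462 and R712 between -0.045 and 0.25.

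In the test of single fragments against the pooled H and L level in retina, 9 of 71 passed, beside 2.89% of all 36005 constructs called higher (0.00278% lower) and 11.6% of the other R constructs (edgeR, adjusted p under 0.05). R72 gave 7 of its 11, and R247-B and R523-G were the others. R523-G (log2 6.76, SE 1.76; edgeR, adjusted p = 0.00485) did not pass with any replicate left out, and R72-B did not without replicate 1 or with total library size (edgeR, adjusted p = 0.0733 and 0.0646). DESeq2 called 16, and so did edgeR without the replicate block.

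At R523, whose window lies on chromosome 2 from 29682406 to 29682705, the same fragments carried the activity in both tissues. The cortex level of the summed fragments was 22.6, 14.3 and 12.7 in replicates 1 to 3, a mean of 16.5 ± 5.33 (SD, n = 3). The retina level was 13.6, 24.8 and 15.3, a mean of 17.9 ± 6.06 (SD, n = 3). The values of the tissues overlapped on this scale, while with plain RNA over DNA shares cortex (13.2 ± 4.27) lay above retina (1.31 ± 0.491; SD, n = 3) in every replicate. The retina log2 of 4.11 (SE 0.72) passed (edgeR, adjusted p = 1.62e-07). Without the replicate block it was 4.16 (edgeR, adjusted p = 0.000328). It fell to 0.32 with total library size (edgeR, adjusted p = 0.859).

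The activity of R523 came mostly from its 3 rightmost fragments. R523-E had cortex levels of 57.0, 35.2 and 36.3 and retina levels of 7.25, 29.0 and 18.3. R523-F had 116, 68.0 and 38.0 in cortex and 33.6, 89.3 and 191 in retina. R523-G, on the other strand and overlapping R523-F by 457 bp, had 52.4, 21.9 and 10.6 in cortex and 76.7, 239 and 72.1 in retina. All 3 fragments were above the pooled level in every replicate of both tissues, in either orientation. Tested singly in retina, R523-E and R523-F did not pass (edgeR, adjusted p = 0.207 and 0.0790). R523-G passed, though not with any replicate left out.

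None of the 4 fragments further left was raised, and their RNA was low or uneven over replicates. R523-D, which holds the first 264 of the 300 bp of the window, had cortex levels of 0.833, 1.16 and 0.275. It had no RNA count in retina, where by counting error alone a count of 0 allows a level of up to 0.027. In retina 71.6% of H and L constructs had no RNA count either. R523-C had 6.83, 0.0472 and 5.67 in cortex and none in retina. R523-B had RNA in all cortex libraries, with a mean of 0.251, and in a single retina library at 15.4, and R523-A had no RNA in cortex. The 3 active fragments share 457 bp, and 223 bp of that, from 29682670 to 29682892, lie in none of the 4 others. Most of that stretch lies outside the target window. Without the fragment with most RNA the level was still 11.4 ± 5.21 in cortex and 9.56 ± 6.81 in retina (SD, n = 3).

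R885, whose window lies on chromosome 10 from 11037886 to 11038185, had the highest mean cortex level of the 7, close to that of R523, and next to no RNA in retina. Cortex levels were 19.4, 14.3 and 17.4, a mean of 17.1 ± 2.58 (SD, n = 3), from 76501 RNA counts over 13 fragments. Retina levels were 0, 1.09 and 0, from 129 RNA counts over 11 fragments, all of them in replicate 2. The groups did not overlap, but cortex values chose the target. In retina the fitted log2 of -7.95 (SE 5.49) did not pass (edgeR, adjusted p = 0.486), and with 2 RNA libraries at 0 its size depends on the fit. DESeq2 gave -8.13 and called R885 lower (adjusted p = 0.00772).

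Activity of R885 in cortex was spread over 9 raised fragments of 13. R885-N, with most RNA, had levels of 26.2, 31.2 and 45.7, and R885-H had 27.9, 22.5 and 29.5. R885-M reached 153, 23.4 and 17.9, R885-L 31.4, 4.70 and 18.98, and R885-K, the one minus-strand fragment that passed, 118, 68.9 and 26.1. R885-F had 22.9, 11.1 and 25.4. R885-B, R885-D and R885-G were lower, with means of 8.02, 4.09 and 8.13. Without R885-N the level of the target was 13.9 ± 3.44 (SD, n = 3).

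The 4 highest means, of R885-K, R885-M, R885-N and R885-H, belonged to the 4 shortest fragments, and R885-F, of 372 bp, and R885-L, of 251 bp, came next. These short fragments, of 199 to 251 bp, lie between 11038020 and 11038325, over the right part of the window and beyond it. Longer fragments over much of the same DNA were lower. R885-I, of 451 bp, had 0, 6.51 and 7.62, and R885-J, of 437 bp, had 8.11, 0 and 0.438. Level and length had a Spearman correlation of -0.75 across the 13 fragments, and of -0.022 across 20259 H and L constructs, a description over fragments that share sequence. R885-O and R885-P, which start further right, had means of 0.188 and 1.13. The 9 raised fragments have no base in common, since R885-D ends at 11038055, before R885-N begins.

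The same R885 barcodes had no RNA count in nearly every retina library. RNA was counted for R885-F (90 counts) and R885-N (37 counts) in replicate 2, and as 1 count each for R885-B and R885-J. The other 7 of the 11 had no retina RNA count, like 71.6% of H and L constructs. Of the 20 fragments of all 7 targets raised in cortex and over the DNA minimum in retina, 7 had no retina RNA count. By counting error alone, a count of 0 allows them levels of up to 0.040 to 0.363.

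R712, with its window on chromosome 15 from 72484086 to 72484385, also lay higher in cortex, at lower levels than R885. The cortex to retina ratios of the means, 45.9 for R712 and 47.0 for R885, rest on only 17 and 129 retina RNA counts. Cortex levels were 3.09, 2.32 and 2.75 (mean 2.72 ± 0.391, SD, n = 3), and retina levels 0.079, 0.099 and 0, from 17 RNA counts. In retina the log2 was -4.90 (SE 3.37) and did not pass (edgeR, adjusted p = 0.484). R712-I had cortex levels of 8.96, 5.15 and 13.1, and R712-H had 3.12, 4.49 and 2.17. They were the only raised fragments of R712 in cortex, and neither had a retina RNA count. They are cloned on opposite strands and share 259 bp from 72484218 to 72484476. R712-G also holds all of that stretch and had 0, 0.0121 and 4.25. R712-D and R712-A had cortex means of 1.15 and 0.0973 and retina means of 0.487 and 0. The median over fragments in cortex was 0.921 ± 1.31 (SD, n = 3), under 1, but a pooled level is not a median. By the mean over replicates, the median fragment of R712 was at 1.02 and the median H and L construct at 0.559. Without R712-I the cortex level was 1.66 ± 0.148 (SD, n = 3).

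R13, on chromosome 6 from 115888886 to 115889185, had the lowest cortex level of the 7. Cortex levels were 1.65, 2.51 and 2.54 (mean 2.23 ± 0.506, SD, n = 3), and retina levels 0.0039, 0.744 and 0.416. The groups did not overlap, but cortex values chose the target. The retina log2 of -2.35 (SE 2.77) did not pass (edgeR, adjusted p = 0.710), beside a median of -1.67 over all regions. Of 20 fragments in cortex, R13-F with 1.85, 3.85 and 4.95 and R13-O with 1.90, 1.59 and 2.25 were raised. R13-R gave 27.3% of the RNA with uneven levels of 0.0643, 19.5 and 10.7, while R13-S, which overlaps it by 411 bp on the other strand, had a mean of 1.13. R13-I, which overlaps R13-F by 552 bp, had a mean of 0.0065. R13-D and R13-Q had cortex means of 2.81 and 0.296 and no retina RNA count. The median over fragments in cortex was 0.597 ± 0.564 (SD, n = 3), below the pooled H and L level. In retina 11 of 18 fragments had no RNA count and none was raised. R13-N reached 20.7 in retina replicate 2 and 0 in the others.

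R72, on chromosome 4 from 117486446 to 117486745, was the most active of the 7 in retina, at levels well above those in cortex. Retina levels were 287, 219 and 274 (mean 260.1 ± 36.4, SD, n = 3), and cortex levels 3.06, 3.61 and 5.08 (mean 3.92 ± 1.05, SD, n = 3), a ratio of 66.4 between the means. With plain RNA over DNA shares the means were 18.8 ± 2.67 in retina and 3.11 ± 0.754 in cortex (SD, n = 3), in the same order and much closer. The retina log2 was 8.01 (SE 0.19) and passed under each alternative run. It was 4.22 with total library size.

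All 11 fragments of R72 that could be read in retina were raised there, with means from 81.6 to 1098. They include both strands, whole and partial windows, and share 161 bp from 117486545 to 117486705. R72-N, R72-O and R72-P, which start further right, at 117486644 or beyond, had no retina RNA count, but they were under the DNA minimum there. R72-H, with most RNA, had retina levels of 296, 167 and 205, R72-J 302, 304 and 423, and R72-A 244, 270.3 and 199.8.

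In cortex only some of these fragments were raised. R72-H had cortex levels of 3.71, 4.31 and 7.43, R72-F 2.42, 4.37 and 5.40, and R72-E 6.72, 5.98 and 1.499. R72-B and R72-G had means of 2.92 and 2.02, uneven over replicates. These 5 hold the whole window, and all are on the minus strand. The 7 other fragments had means of 0.0127 to 0.731. R72-J, on the minus strand and with 272 of the 300 bp, had 3, 4 and 0 RNA counts in cortex, and R72-A, on the plus strand with 283 bp, had levels of 0.490, 0 and 0.0327. R72-A overlaps R72-B by 569 bp and reached 238 in retina, where R72-B reached 81.6.

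Summed, the R72 fragments with the whole window had a cortex level of 4.53 ± 1.26 and the partial ones 0.218 ± 0.221 (SD, n = 3). The replicates did not overlap. In retina the same sums were 262 ± 43.6 and 242 ± 48.2, and the log2 of partial minus whole was -0.12 (SE 0.38; edgeR, adjusted p = 0.929). By strand, cortex levels were 0.379 ± 0.435 for plus and 4.27 ± 1.23 for minus fragments, and retina levels 181 ± 28.1 and 267 ± 41.9. The retina log2 of minus less plus was 0.56 (SE 0.29) and did not pass (edgeR, adjusted p = 0.277). Among fragments over the DNA minimum, R72-J is the one on the minus strand without the whole window, and no plus-strand fragment holds it all. R72-I, on the plus strand, holds 298 of the 300 bp and had cortex levels of 2.17, 0 and 0. With so few such fragments, strand and window can hardly be separated.

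R247, on chromosome 12 from 36199386 to 36199685, was higher in retina on the H and L scale. Retina levels were 79.2, 36.5 and 28.0 (mean 47.9 ± 27.4, SD, n = 3), and cortex levels 4.99, 4.97 and 2.58 (mean 4.18 ± 1.39, SD, n = 3). The retina log2 was 5.43 (SE 0.53, edgeR, adjusted p = 4.44e-23). Without the replicate block it was 5.57 (edgeR, adjusted p = 0.000235), and with total library size 1.64 (edgeR, adjusted p = 0.259). With plain RNA over DNA shares the means were 3.35 ± 1.56 in retina and 3.34 ± 1.17 in cortex, and the median over fragments was 0.404 ± 0.523 in retina and 3.001 ± 2.04 in cortex (SD, n = 3), so the order did not hold under either. R247-B gave most RNA in both tissues, with 134, 88.6 and 37.8 in retina and 9.97, 11.3 and 5.43 in cortex. R247-C had 53.2, 11.1 and 34.1 in retina and 4.49, 0.960 and 1.77 in cortex. Without R247-B the levels were 20.4 ± 14.0 in retina and 2.12 ± 1.35 in cortex (SD, n = 3).

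The 3 other R247 fragments read in retina had levels of at most 0.994 in any replicate. R247-E, which overlaps R247-B by 451 bp on the opposite strand, had no retina RNA count. By counting error alone, that allows a level of up to 0.641 from its 77 DNA counts. R247-F and R247-G had retina means of 0.165 and 0.331 and cortex means of 2.30 and 1.28, uneven over replicates. The active R247-B and R247-C are both on the minus strand and both hold the whole window, and the others read in retina are on the plus strand with part of it. The log2 of minus less plus was 9.09 (SE 1.56; edgeR, adjusted p = 0.0212) in retina, and partial less whole was -9.09 (SE 1.56; edgeR, adjusted p = 0.0198), from the same fragments. These tests called 24.1% and 26.6% of all regions. R247 did not pass either without replicate 1 (edgeR, adjusted p = 0.105 and 0.103) or replicate 3 (edgeR, adjusted p = 0.0687 and 0.0630). Without replicate 1, and without replicate 3, the strand test called 0 of its 1850 regions, so its loss there was not particular to R247.

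In the same tests R13 passed for partial less whole window in retina, at -6.20 (SE 0.97; edgeR, adjusted p = 0.0198), although both of its sums lay below 1, at 0.0082 ± 0.0078 and 0.506 ± 0.485 (SD, n = 3). That call was also lost without replicate 1 or 3 (adjusted p = 0.0803 and 0.0630) and with the replicate block in place of the library block (adjusted p = 0.288). R523, R462 and R712 did not pass for strand (adjusted p from 0.279 to 0.921), nor did R13 (0.822), and R462 did not pass for window (0.914), though it did without replicate 2 (10.8; edgeR, adjusted p = 0.0360). The cortex sums of R523 were 51.3 ± 17.9 on the plus and 5.00 ± 3.27 on the minus strand (SD, n = 3), where 4 of the 5 minus fragments lack the shared stretch.

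R462, on chromosome 3 from 19900786 to 19901085, had overlapping levels in both tissues, and its highest fragments differed between them in part. Cortex levels were 1.59, 3.78 and 3.56 (mean 2.98 ± 1.21, SD, n = 3) and retina levels 0, 8.82 and 2.47 (mean 3.76 ± 4.55, SD, n = 3). The retina log2 of 0.51 (SE 2.71) did not pass (edgeR, adjusted p = 0.942). R462-F gave 62.3% of the cortex RNA, with levels of 0.447, 5.32 and 7.71, and R462-N, with 4.40, 3.46 and 9.49, was the only raised fragment. In retina R462-N had RNA in replicate 3 alone.

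The highest retina levels of R462 were those of R462-B, R462-K and R462-E. R462-K had retina levels of 0, 58.8 and 14.9, and R462-B and R462-E had retina RNA in replicate 2 alone, at 349.8 and 25.6. The value of R462-B rests on 15 DNA counts in that library. With at least 20 DNA counts in every library the R462 mean was 1.98 ± 1.76 in retina and 3.09 ± 1.60 in cortex (SD, n = 3), which turns the order of the means. R462-K and R462-E had no RNA count in cortex. R462-B had cortex levels of 18.6, 9.02 and 0. No R462 fragment had RNA in all 3 retina replicates.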

How the data were processed

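Barcoded reporter constructs were counted as RNA and DNA in retina and cortex, 3 replicates each, with 50 bp reads. Fragments had been assigned to barcodes from paired reads of 250 bp, per the labels. Bowtie2 2.1.0, bedtools 2.22.1, SAMtools 0.1.19, FastQC and the build mm9 are listed, without roles, in the submitters' processing notes. The authors deposited raw barcode counts and, per the file headers, log2 ratios of RNA to DNA for constructs with at least 10 counts in each DNA library. The log2 of the ratio of count shares plus 0.001 matched these to within 5e-10. The fragment table, deposited in 2 identical copies, was used 1 time. Window edges were worked out from deposited overlap lengths. No genome of this build was used here, so fragment sequences and neighbouring genes are not reported.

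Levels were computed from counts over the summed H and L constructs that passed the DNA minimum. RNA was tested against DNA in retina by the quasi-likelihood test of edgeR 4.0.16 under R 4.3.3 (robust, Benjamini-Hochberg over all features, threshold 0.05), libraries scaled by H and L counts, with the replicate as a block. Alternatives were TMM, total library size, DESeq2, other count minimums, no block, and leaving out replicates or the top construct. RNA and DNA of a replicate come from the same tissue per the labels; their deviations correlated between -0.0182 and 0.0144. Regions needed 5 constructs. Strand and window tests used counts summed on each side (at least 2 constructs), with the library as a block. SEs come from log2 and F. The scripts were run on simulated counts drawn around each DNA mean. That simulation was not built to match retina, where 64.3% of constructs had no RNA count, so it does not test the calls there. DESeq2 1.42.0, Python 3.11.15, numpy 2.4.6, scipy 1.17.1 and pandas 2.3.3 were also used.

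The targets, tests and alternatives were chosen with earlier results of these data known. Named in each target were the 3 fragments highest in either tissue, the lowest that overlaps the top one by at least 0.8, and such pairs on opposite strands; R523-A to R523-D, R72-B, R72-D, R72-N to R72-P, R885-B, R885-D, R885-G, R885-I, R885-O and R885-P were added after their values were seen, and R72-L, R72-K and R72-O for the closing section.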

Additional observations from a re-analysis of the deposited data

Results flagged for a closer look

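The targets R13 and R712 lay above a level of 1 in every cortex replicate and below 1 in every retina replicate, with cortex means of 2.23 and 2.72 for counts summed over fragments; the medians over fragments averaged 0.597 and 0.921. The same held for single fragments with cortex means of 3.26 (R712-H), 9.06 (R712-I), 8.02 (R885-B), 4.09 (R885-D), 8.13 (R885-G), 26.6 (R885-H), 18.4 (R885-L) and 64.6 (R885-M). The opposite held for R72-A, R72-J and R72-L, which lay below 1 in every cortex replicate and had retina means of 238, 343 and 131. These differences between the tissues were not tested, since the cortex values chose the targets. A retina level below 1 was also the usual state. RNA was absent in retina for 71.6% of the H and L set, whose median level there was 0. The median retina log2 over all regions was -1.67. How many of all constructs or regions meet both conditions was not computed. R72-L and R885-G rest on few DNA counts, 153 and 136 in retina.

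Constructs under the DNA minimum entered no level. Of 14 such members in cortex, 6 had more than 3 RNA counts, the highest being R72-O with 814. Of 22 in retina, 5 had more than 3, the highest being R72-K with 152.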

How the results depend on the processing

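For regions in retina the 3 members called higher and none lower became 1 and 3 with total library size, and 1 lower was called in DESeq2. Among all regions, 190 higher and 0 lower became 90 and 916 with total library size; lower calls numbered 3 with TMM, 373 in DESeq2, 107 without the replicate block and 360 without the top construct. For constructs in retina, 1041 higher and 1 lower became 1869 and 28923 in DESeq2, 1629 and 23906 without the replicate block, while lower calls numbered 23374 with TMM and 24165 with total library size, and 0 with any replicate left out. Among members, 9 higher became 16 in DESeq2 and 16 without the block, and 0 lower became 32 (TMM), 34 (total library size), 45 (DESeq2) and 35 (no block). The cause was not tested. R523-G did not pass with TMM or total library size (adjusted p = 0.115 and 0.224) or with any replicate left out (0.161 to 0.343).

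Strand differences were called for 445 regions and 1 member, 17 regions with the replicate block in place of the library block, 0 members with at least 20 DNA counts, and 0 to 452 regions and 0 to 2 members with a replicate left out; the value of R712 ranged from -7.32 without replicate 2 to 8.88 without replicate 1. Window differences were called for 487 regions and 2 members, 25 regions and 1 member (R247, with R13 lost) with the replicate block, 1 member with at least 20 counts, and 0 to 591 regions and 0 to 3 members with a replicate left out.

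Targets with retina above cortex in every replicate numbered 2 (R72, R247), 1 with the median over constructs, and 1 with plain RNA over DNA shares, R247 being lost in both; with shares, cortex was above retina for 5 in place of 3, R523 and R462 being added. Without the top constructs, fragments raised in both tissues numbered 3 of 57 and the Spearman correlation over all was -0.0489. Retina is limited by the many barcodes without RNA.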

Other observations

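R72-D and R72-E start at the same base and have barcodes that differ at 1 position. R72-D had 3, 1 and 6 RNA counts in retina against 10976, 11591 and 21866 for R72-E, and 0, 0 and 1 DNA counts. It was under the DNA minimum in both tissues and entered no level.

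Over all 79 members in cortex, level and summed DNA counts had a Spearman correlation of 0.32, beside 0.25 over H and L constructs, as a description over constructs of the same libraries. In retina these were 0.14 over 71 members and 0.24 over H and L constructs.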
